A study of Mus musculus with 6 samples.

Results

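The 42 genes described here encode the NRF2 pathway and the enzymes that remove superoxide, hydrogen peroxide and lipid peroxides from cells. They were taken by name from the 32285 genes of the deposited count table, with earlier results of these data known. They cover NRF2 and its regulators, the glutathione and thioredoxin systems, superoxide dismutases and catalase, and peroxidases. Glutathione S-transferases, enzymes of NADPH supply and the pentose phosphate pathway, and metallothioneins complete the set. All 42 had a row in the table, and all 42 passed the filter of at least 10 counts in total over the libraries. Retinal RNA was sequenced from wild-type C57BL/6J pups at postnatal day 18 (PN18), in 3 libraries per group. Pups of both groups were first kept in 75% O2 for 5 days from PN8 to PN13 (oxygen-induced retinopathy, OIR), which obliterates central retinal capillaries. OIR-CIH pups then underwent chronic intermittent hypoxia (CIH) for 10 h daily, as 266 cycles of 135 s in which O2 went from 20.95% to 5% and back. OIR-Norm pups were given the same flow of gas without a change in O2. No group without OIR was sequenced, so every value below is from a retina that had been through hyperoxia. Libraries came from poly(A) RNA (input 250 ng, strand kept), and 3 eyes per group are stated. All 6 libraries held more than 100 counts both of Xist and of the Y-linked Ddx3y, so n counts libraries, and how many animals each one pools is not stated. P-values therefore measure the spread between these libraries, which may be technical. The tissue was checked by markers of cone photoreceptors, which summed to 1315 to 1654 CPM (the count relative to library size after TMM scaling), and of Müller glia, which summed to 4258 to 5137 CPM. Markers of pigment epithelium were uneven across libraries, at 467.9 to 696.7 CPM in OIR-CIH and 314.6 to 663.5 CPM in OIR-Norm.

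NRF2, encoded by Nfe2l2, is a transcription factor that KEAP1 holds in the cytoplasm and marks for degradation. Oxidants and electrophiles modify cysteines of KEAP1, after which NRF2 accumulates, pairs with small MAF proteins and activates genes that carry an antioxidant response element. Its targets make glutathione and thioredoxin usable as electron donors, and both systems draw on NADPH from the pentose phosphate pathway. The retina is rich in polyunsaturated lipids and consumes much oxygen, and its Müller glia are known to hold and supply glutathione. Because NRF2 protein is set mainly by its degradation, the level of Nfe2l2 mRNA is not a measure of NRF2 activity.

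The DNA just upstream of 3 members is printed here because it holds letter matches to short motifs. Each sequence is the 250 bases before the RefSeq transcript start in mouse build GRCm38.p6, written 5′ to 3′ on the strand of the gene. Capitals in Slc7a11 mark both matches to TGATGNAA, the core of the element bound by ATF4 with C/EBP proteins, and capitals in Gclm and Txnrd1 mark the match to TGACNNNGC, the core of the antioxidant response element. Slc7a11 lies on the minus strand at chr3:50443614-50443863, Gclm on the plus strand at chr3:122245307-122245556 and Txnrd1 on the plus strand at chr10:82858956-82859205.
Slc7a11: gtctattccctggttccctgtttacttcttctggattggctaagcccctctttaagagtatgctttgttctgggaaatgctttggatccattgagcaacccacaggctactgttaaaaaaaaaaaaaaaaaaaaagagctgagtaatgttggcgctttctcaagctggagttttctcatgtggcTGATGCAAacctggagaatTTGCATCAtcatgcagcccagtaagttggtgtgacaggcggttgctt
Gclm: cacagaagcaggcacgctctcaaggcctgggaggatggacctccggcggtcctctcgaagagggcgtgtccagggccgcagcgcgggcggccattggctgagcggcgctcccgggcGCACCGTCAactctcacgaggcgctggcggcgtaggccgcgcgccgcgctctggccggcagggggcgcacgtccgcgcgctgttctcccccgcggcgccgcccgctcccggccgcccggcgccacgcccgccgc
Txnrd1: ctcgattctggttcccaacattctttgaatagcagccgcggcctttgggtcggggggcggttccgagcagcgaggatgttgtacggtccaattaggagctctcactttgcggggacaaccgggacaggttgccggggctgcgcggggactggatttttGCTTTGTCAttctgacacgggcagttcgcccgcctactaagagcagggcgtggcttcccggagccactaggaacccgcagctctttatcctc

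In Slc7a11 the 2 matches face each other on opposite strands, from 66 to 59 and from 47 to 40 bases before the start. Both strands of the 250 bases were searched for each motif in the RefSeq promoter table, which had an entry for 37 of the 42 members. TGACNNNGC was found in 8 of the 37 (21.6%), namely Nfe2l2, Gclm, Txnrd1, Prdx1, Sod1, Gstm5, G6pdx and Mt2, and in 11.5% of all 27025 genes with an entry. Slc7a11 was the only 1 of the 37 members (2.7%) with TGATGNAA, which 3.91% of all genes held. The 2 motifs differ in their letters and had no overlapping match in these 3 sequences. A match is a description of the letters in this window and was not tested as a binding site.

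The question this group of genes can answer is whether intermittent hypoxia, added to an ischemic retina, came with a different level of antioxidant transcripts. Of the 42 members, 1 was called: Slc7a11, which was lower in OIR-CIH. A call required an adjusted p under 0.05 from edgeR's quasi-likelihood test with Benjamini-Hochberg adjustment over all 20021 genes tested, and an absolute log2 fold change above 0.5. By that rule 0.315% of all genes were called, 0.210% as lower and 0.105% as higher in OIR-CIH, against 2.38% of the members as lower and 0 as higher. At an unadjusted p under 0.05 there were 12 members, 6 higher and 6 lower in OIR-CIH, which is 28.6% of the members against 13.4% of all genes (6.30% higher and 7.10% lower). The 3 OIR-CIH values lay entirely above or below the 3 OIR-Norm values in 9 members, 5 higher and 4 lower, which is 21.4% of the members against 18.4% of all genes. These shares set the members beside many genes of low level. At a mean of at least 10 CPM, 9 of 36 members and 1667 of 10544 genes had an unadjusted p under 0.05. In that set the groups lay apart in 8 of 36 members and 2238 of 10544 genes. DESeq2 also called Slc7a11 as the 1 lower and 0 higher members. The members did not lean one way as a group: 24 had a positive and 18 a negative log2 fold change, with a median of 0.05, beside -0.01 for all genes tested.

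For most members the data also bound how large a difference could have been. The 95% interval of the log2 fold change lay within 0.5 of 0, the size a call required, in 34 of the 42 members. Among the other 8, Slc7a11 was called and Nqo1, Osgin1, Sod3, Gpx3, Gpx4, Gstm1 and Mt2 were not, so for these 7 a difference past that size was not excluded in at least one direction. The 41 members that were not called had adjusted p-values from edgeR between 0.271 and 0.993.

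**Figure D1:**
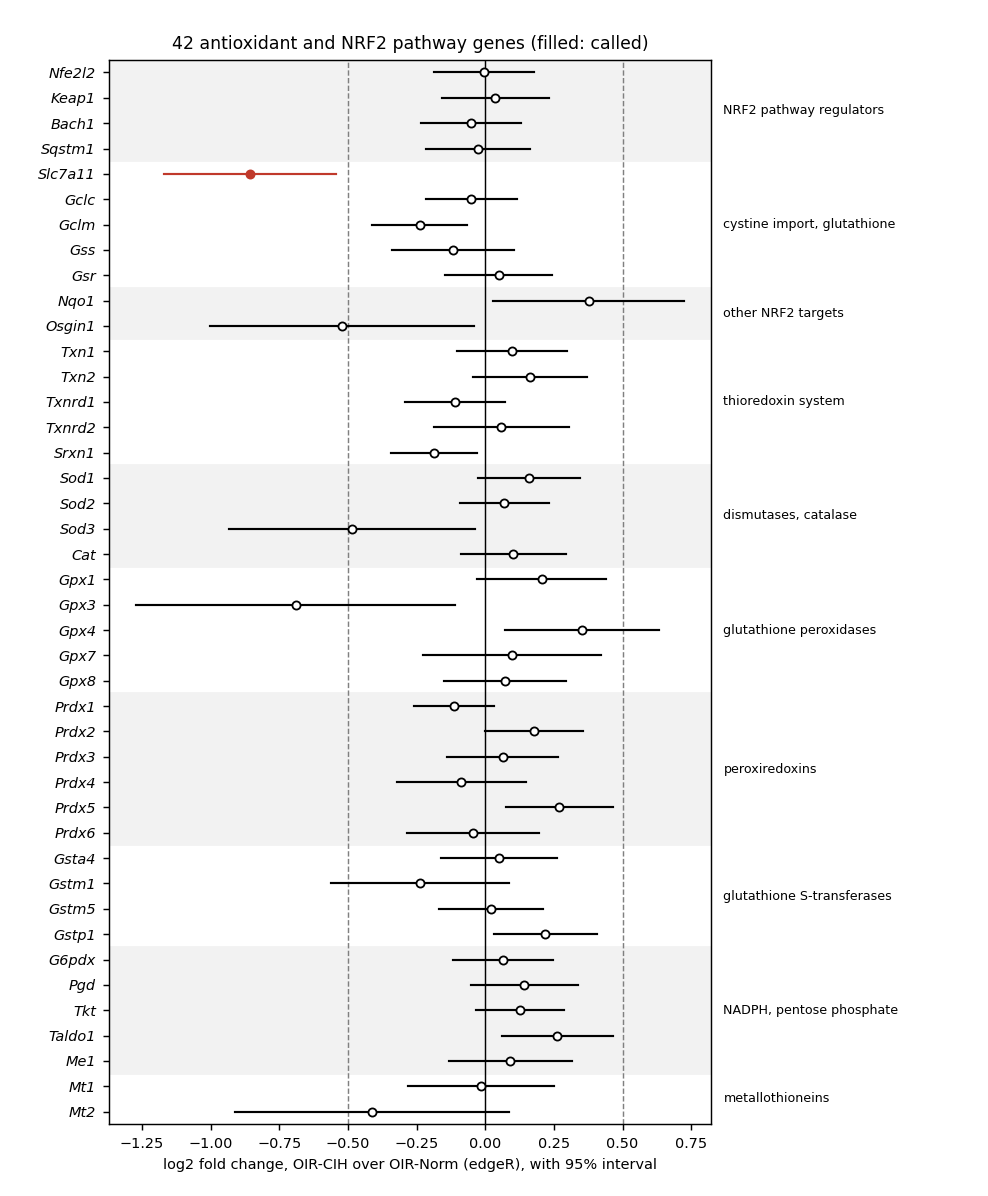
Log2 fold change of each of the 42 genes (horizontal axis, OIR-CIH over OIR-Norm, n = 3 libraries per group) with its 95% interval from edgeR, grouped by role; dashed lines mark 0.5 in each direction and a filled symbol marks a called gene. Slc7a11 is the 1 gene whose whole interval, from -1.17 to -0.54, lies beyond a dashed line, while the intervals of 34 genes lie between the lines.

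Transcripts of NRF2 and its regulators had like levels in both groups. Nfe2l2 (ENSMUSG00000015839) had 39.9, 38.4 and 36.5 CPM in the OIR-CIH libraries and 39.7, 40.4 and 35.0 in the OIR-Norm libraries. The groups overlapped, and the log2 fold change was -0.00 with a 95% interval from -0.19 to 0.18, at an adjusted p of 0.993 from edgeR. Keap1, the adaptor that marks NRF2 for degradation, differed by 0.04 on the log2 scale (interval -0.16 to 0.23). Bach1, a repressor that competes with NRF2 for its DNA element, differed by -0.05 (interval -0.23 to 0.13). Sqstm1, which encodes the autophagy receptor p62 that can sequester KEAP1, differed by -0.03 (interval -0.22 to 0.16). None of these 4 genes had groups that lay apart, and Sqstm1 was by far the most abundant of them per exon length, at 69.4 CPM per kb of exon in OIR-Norm beside 6.55 to 10.1 for the other 3.

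Slc7a11 (ENSMUSG00000027737) encodes xCT, the subunit that gives its specificity to the cystine-glutamate antiporter, through which cells take up cystine for glutathione synthesis. It had 7.89, 8.88 and 9.98 CPM in the OIR-CIH libraries and 17.2, 18.6 and 13.0 CPM in the OIR-Norm libraries. Every OIR-CIH library was below every OIR-Norm library, and the highest OIR-CIH value came closest to OIR-Norm 3. The means were 8.91 ± 1.05 CPM (SD, n = 3) and 16.3 ± 2.92 CPM (SD, n = 3), a decrease to 0.548 of the OIR-Norm level. Its log2 fold change was -0.86 (standard error 0.14, 95% interval -1.17 to -0.54, adjusted p = 0.0234 from edgeR). An exact two-sided permutation test of the mean gave p = 0.1, the smallest that 3 against 3 libraries allow.

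The call of Slc7a11 depended on single libraries, although its direction did not. The log2 fold change lay between -1.0 and -0.75 when each library was left out in turn. In those 6 fits the edgeR adjusted p was 0.0458 without OIR-CIH 3 and 0.00535 without OIR-Norm 3, but 0.15 without OIR-CIH 1, 0.0854 without OIR-CIH 2, 0.0689 without OIR-Norm 1 and 0.0795 without OIR-Norm 2. DESeq2 gave it an adjusted p of 9.26e-06. Markers of reactive glia were also lower, but that list was chosen with earlier results known, so its direction is not an independent observation. Their summed level was 303.9 to 313.7 CPM in OIR-CIH and 545.3 to 652.4 CPM in OIR-Norm. In OIR-CIH 12 of 12 genes were lower, 9 called by edgeR and 10 by DESeq2, where edgeR called 0.210% of all genes as lower. Of 12 Müller glia markers 6 were higher and 6 lower, with 0 called by edgeR or DESeq2. In bulk RNA fewer cells of a type and less RNA per cell cannot be told apart, and the part of glia in the level of Slc7a11 was not tested.

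The other genes of glutathione synthesis did not pass the test. Gclm, the modifier subunit of glutamate-cysteine ligase, had 34.7, 33.9 and 37.5 CPM in OIR-CIH and 43.6, 39.9 and 41.8 CPM in OIR-Norm. These groups did not overlap, yet the difference was small, at -0.24 on the log2 scale (standard error 0.08), and the edgeR adjusted p was 0.272. Gclc, the catalytic subunit that sets the rate of the pathway, had 38.7, 41.3 and 41.7 CPM against 40.9, 41.7 and 43.5 CPM. Its groups overlapped, with a log2 fold change of -0.05 (interval -0.22 to 0.11). Gss, which adds glycine to complete glutathione, differed by -0.12 (interval -0.34 to 0.10), and Gsr, which returns oxidized glutathione to its reduced form, by 0.05 (interval -0.15 to 0.24). Of these 5 genes 4 were lower in OIR-CIH and 1 was called. Per kb of exon Slc7a11 was the lowest of them in both groups, at 0.640 CPM in OIR-CIH and 1.17 CPM in OIR-Norm, and Gclc the highest, at 10.8 and 11.2 CPM.

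**Figure D2:**
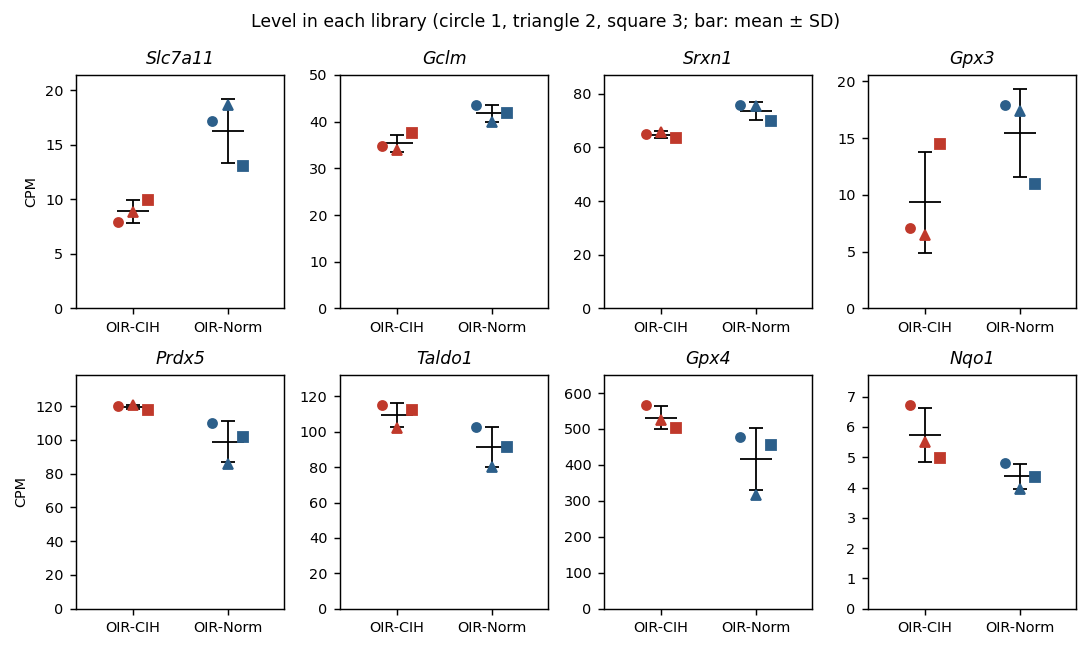
CPM of 8 genes in each of the 6 libraries (vertical axis from 0, scaled per gene), with OIR-CIH in red and OIR-Norm in blue; symbols give the replicate number and bars the mean ± SD (n = 3). Slc7a11, Gclm and Srxn1 are lower in each OIR-CIH library than in any OIR-Norm library, Prdx5, Gpx4 and Nqo1 are higher, and the groups of Gpx3 and Taldo1 overlap.

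Both classical NRF2 targets outside these systems were near the lower end of the members' levels, with fold changes of opposite sign and no call. Nqo1, a quinone reductase that is widely used as a readout of NRF2, had 6.71, 5.51 and 4.98 CPM in OIR-CIH and 4.80, 3.96 and 4.34 CPM in OIR-Norm. The groups lay apart by a narrow margin, between OIR-CIH 3 and OIR-Norm 1. Its log2 fold change was 0.38 (interval 0.03 to 0.72) at an edgeR adjusted p of 0.343. Osgin1, an oxidative stress response gene of low level here, had 1.77, 1.63 and 2.36 CPM against 2.92, 3.23 and 2.29 CPM. OIR-CIH 3 lay above OIR-Norm 3, so the groups overlapped, and the log2 fold change was -0.52 (interval -1.0 to -0.04, adjusted p = 0.344 from edgeR).

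In the thioredoxin system, which reduces disulfides in proteins, 3 genes had a positive and 2 a negative fold change. Srxn1 encodes sulfiredoxin, which restores overoxidized peroxiredoxins, and had 64.9, 65.7 and 63.3 CPM in OIR-CIH and 75.7, 75.5 and 69.8 CPM in OIR-Norm. The OIR-CIH libraries lay closely together and below all OIR-Norm libraries, with means of 64.7 ± 1.23 and 73.7 ± 3.36 CPM (SD, n = 3). The log2 fold change was -0.19 (interval -0.34 to -0.03) and the edgeR adjusted p 0.307. Txnrd1, the cytosolic thioredoxin reductase, differed by -0.11 (interval -0.29 to 0.07) and its mitochondrial counterpart Txnrd2 by 0.06 (interval -0.19 to 0.31). The thioredoxins themselves, cytosolic Txn1 and mitochondrial Txn2, differed by 0.10 and 0.16, with intervals that included 0.

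Superoxide dismutases turn superoxide into hydrogen peroxide, and catalase breaks hydrogen peroxide down. Sod1 in the cytosol, Sod2 in mitochondria and Cat in peroxisomes had log2 fold changes of 0.16, 0.07 and 0.10, with intervals that included 0. Sod3, the secreted dismutase that binds to extracellular matrix, was the exception in direction, with 4.94, 5.06 and 8.12 CPM in OIR-CIH and 9.87, 9.44 and 6.60 CPM in OIR-Norm. The groups overlapped because replicate 3 was the highest library of OIR-CIH and the lowest of OIR-Norm. Its log2 fold change was -0.49 (interval -0.93 to -0.04, adjusted p = 0.344 from edgeR), and -0.79 without OIR-CIH 3 (adjusted p = 0.227).

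Gpx3, the secreted plasma glutathione peroxidase, had the same arrangement of libraries as Sod3. It had 7.06, 6.45 and 14.5 CPM in OIR-CIH and 17.9, 17.4 and 10.96 CPM in OIR-Norm, so OIR-CIH 3 lay above OIR-Norm 3. The log2 fold change was -0.69 (interval -1.27 to -0.11, adjusted p = 0.308 from edgeR), the second most negative among the members. Without OIR-CIH 3 it was -1.19 with an adjusted p of 0.0469, which is past the thresholds. Without OIR-CIH 1 or OIR-CIH 2 it was -0.53 and -0.48, with adjusted p-values of 0.618 and 0.494. Some genes of blood, vessels and pigment cells were also highest in OIR-CIH 3 within OIR-CIH and lowest in OIR-Norm 3 within OIR-Norm. Other genes of the same marker lists were not. The pigment epithelium markers Rpe65, Ttr, Lrat, Rgr and Rdh5 were lowest in OIR-CIH 3 within OIR-CIH. The endothelial markers Kdr and Egfl7 were not lowest in OIR-Norm 3. The hemoglobin gene Hba-a1, picked after its values were seen, had 7.22, 6.45 and 11.2 CPM in OIR-CIH and 17.5, 20.4 and 5.56 CPM in OIR-Norm, and the endothelial cadherin Cdh5, picked likewise, had 5.65, 6.10 and 10.6 CPM and 10.4, 19.96 and 4.96 CPM. As lists, 9 erythroid markers summed to 56.5 to 75.7 CPM in OIR-CIH and 52.3 to 115 CPM in OIR-Norm, and 12 endothelial markers to 300.8 to 350.1 and 301.2 to 402.7 CPM, with 0 called in either list by edgeR or DESeq2 and 1 gene of each at an unadjusted p under 0.05. The pigment gene Pmel, also picked after its values were seen, had 36.0, 17.3 and 40.4 CPM in OIR-CIH and 85.8, 49.95 and 25.3 CPM in OIR-Norm. As a list, 11 pigment epithelium markers were highest in OIR-CIH 1 (696.7 CPM) and lowest in OIR-Norm 3 (314.6 CPM). Of that list 5 were higher in OIR-CIH, all at an unadjusted p under 0.05 (6.30% of all genes), and 6 lower, with 0 called by edgeR or DESeq2. This order of libraries was not limited to Gpx3 and Sod3 among the members. The called gene Slc7a11 had it, with 7.89, 8.88 and 9.98 CPM in OIR-CIH and 17.2, 18.6 and 13.0 CPM in OIR-Norm. Osgin1 and Gstm1 had it as well. The part of blood, vessels and pigment cells in the values of Gpx3, Sod3, Slc7a11, Osgin1 and Gstm1 was not tested.

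Intracellular glutathione peroxidases had positive fold changes. Gpx4, which reduces lipid peroxides in membranes and so guards against ferroptosis, was by far the most abundant of the 42 genes per exon length, at 308 CPM per kb in OIR-CIH and 241 CPM per kb in OIR-Norm. Its values were 566, 526 and 502 CPM in OIR-CIH and 477, 316 and 455 CPM in OIR-Norm. The groups lay apart, and OIR-Norm 2 stood well below the other libraries. The log2 fold change was 0.35 (interval 0.07 to 0.63) at an edgeR adjusted p of 0.296. Gpx1, the abundant cytosolic enzyme, differed by 0.21 (interval -0.03 to 0.44), also with its lowest value in OIR-Norm 2. Without OIR-Norm 2 the log2 fold changes of Gpx4 and Gpx1 were 0.19 and 0.10. Gpx7 and Gpx8, enzymes of the endoplasmic reticulum, differed by 0.10 and 0.07 with intervals that included 0, and were at -0.05 and -0.10 after a correction for exon length.

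Among the 6 peroxiredoxins, which remove peroxides with electrons from thioredoxin, 3 were higher and 3 lower. Prdx5 had 120.0, 120.4 and 117.8 CPM in OIR-CIH and 109.9, 85.7 and 101 CPM in OIR-Norm. The groups did not overlap and the log2 fold change was 0.27 (interval 0.07 to 0.47), but the edgeR adjusted p was 0.271, the lowest of all members that were not called. Without OIR-Norm 2, its lowest library, the log2 fold change was 0.18. Prdx2 was also higher in every OIR-CIH library, with 161, 148 and 157 CPM against 146, 123 and 143 CPM (log2 fold change 0.18). Prdx1 lay apart in the other direction, with 95.3, 93.1 and 94.6 CPM in OIR-CIH against 104.7, 100.9 and 100.5 CPM in OIR-Norm (log2 fold change -0.11). The mitochondrial Prdx3, the endoplasmic Prdx4 and Prdx6, which acts on phospholipid peroxides, had fold changes of 0.06, -0.09 and -0.04, and their groups overlapped.

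Glutathione S-transferases couple glutathione to electrophiles. Gstp1 had 49.4, 44.7 and 49.8 CPM in OIR-CIH and 44.8, 37.9 and 40.9 CPM in OIR-Norm, and the groups overlapped by a hair, at OIR-CIH 2 and OIR-Norm 1. The log2 fold change of Gstp1 was 0.22 (interval 0.03 to 0.41, adjusted p = 0.316 from edgeR). Gsta4, which acts on the lipid peroxidation product 4-hydroxynonenal, and Gstm5 differed by 0.05 and 0.02, while Gstm1 differed by -0.24 (interval -0.56 to 0.09). Without OIR-CIH 2 the log2 fold change of Gstm1 was -0.10, without OIR-CIH 3 it was -0.38, without OIR-Norm 3 it was -0.37, and after a correction for exon length it was -0.39. Reads that fit several members of this family equally well would be lost under the counting of uniquely mapped reads, so that levels of Gstp1 and the Gstm genes are uncertain.

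All 5 genes of NADPH supply and the pentose phosphate pathway had positive fold changes and none was called. G6pdx and Pgd of the oxidative branch and malic enzyme Me1 make NADPH, and Tkt and Taldo1 belong to the non-oxidative branch. Taldo1 had 115, 102 and 112 CPM in OIR-CIH and 102, 80.1 and 91.5 CPM in OIR-Norm. OIR-CIH 2 and OIR-Norm 1 all but coincided, and the log2 fold change was 0.26 (interval 0.06 to 0.47, adjusted p = 0.290 from edgeR). Tkt had 287, 283 and 314 CPM in OIR-CIH and 279, 264 and 267 CPM in OIR-Norm, so every OIR-CIH library was higher, by 0.13 on the log2 scale (interval -0.03 to 0.29). Pgd, Me1 and G6pdx differed by 0.14, 0.09 and 0.06, each with an interval that included 0. Me1 was at -0.01 without OIR-CIH 1, and G6pdx at -0.00 after a correction for exon length.

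Metallothioneins bind zinc and copper and are induced by metals, oxidants and glucocorticoids. Mt1 had 68.1, 60.6 and 65.2 CPM in OIR-CIH and 72.3, 73.3 and 50.7 CPM in OIR-Norm, so that the OIR-Norm libraries enclosed those of OIR-CIH, and its log2 fold change was -0.02 (interval -0.28 to 0.25). Mt2 was much lower per exon length, at 7.85 CPM per kb in OIR-Norm beside 52.5 for Mt1. It had 2.32, 3.95 and 3.92 CPM in OIR-CIH and 4.03, 6.00 and 3.83 CPM in OIR-Norm, a log2 fold change of -0.41 (interval -0.91 to 0.09). That of Mt2 was -0.19 without OIR-Norm 2, -0.23 without OIR-CIH 1 and -0.65 after the length correction. Mt1 and Mt2 are alike in sequence, which makes their separate counts uncertain.

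**Figure D3:**
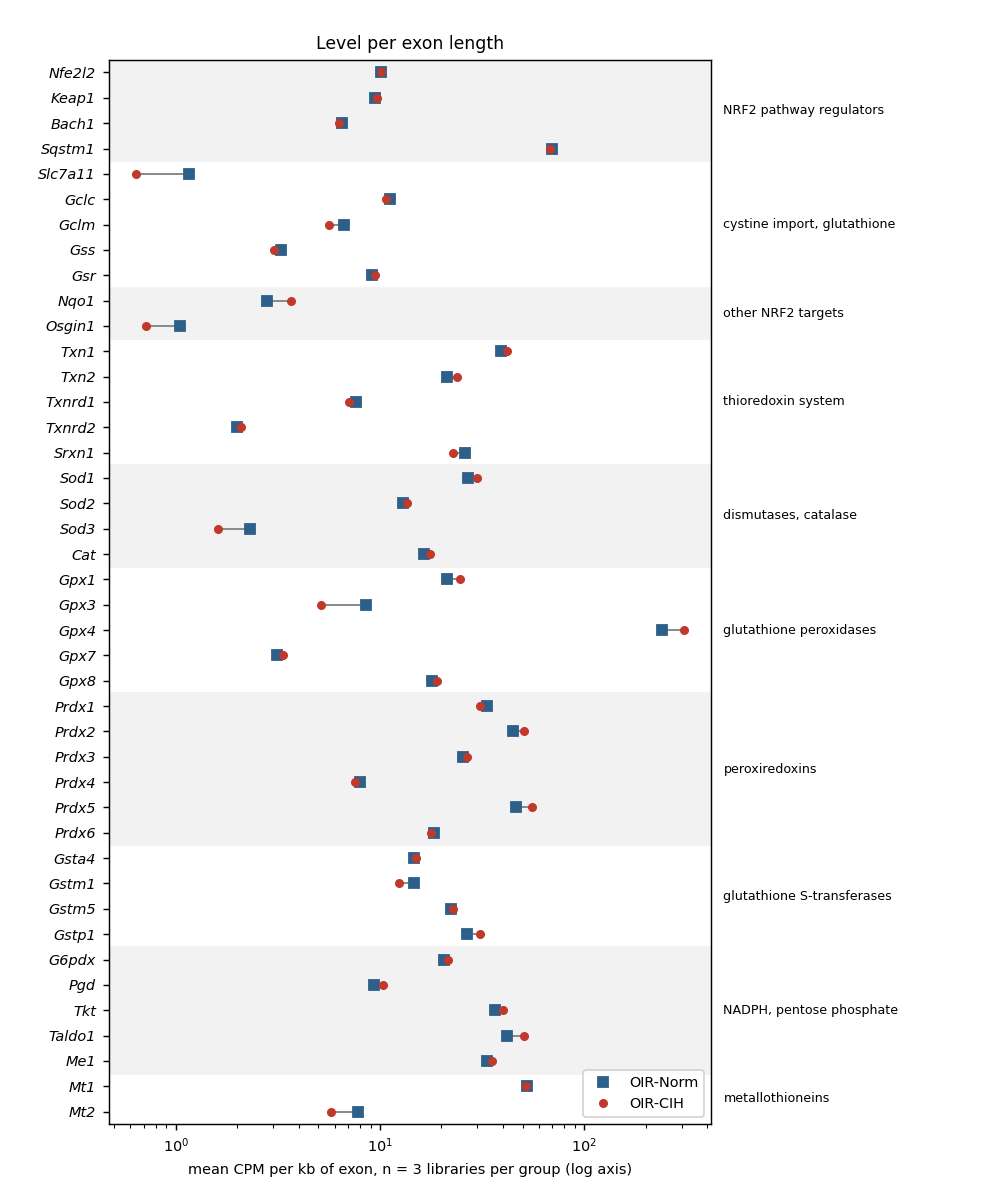
Mean CPM per kb of exon in OIR-CIH (red circles) and OIR-Norm (blue squares) on a log axis, n = 3 libraries per group, grouped by role; a grey line joins the groups. Gpx4 stands at 241 and 308, and Slc7a11 and Osgin1 are the lowest, near 1 in OIR-Norm and below it in OIR-CIH.

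Agreement between libraries set what could be seen. The smallest count of a member in any library was between 45 and 9014, with a median of 1067, so counting error was minor for nearly all of them. The coefficient of variation over the 3 libraries had a median of 6.34% in OIR-CIH and 8.54% in OIR-Norm for the members, beside 6.33% and 7.03% for all genes of at least 10 CPM. OIR-Norm 2 was the lowest of the 6 libraries in 15 of 42 members (35.7%), and in 31.0% of all genes of at least 10 CPM. That library also held lens RNA, with summed lens markers at 1044 CPM against 88.1 to 180.8 CPM in the other 5, and whether this bears on the members was not tested.

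**Figure D4:**
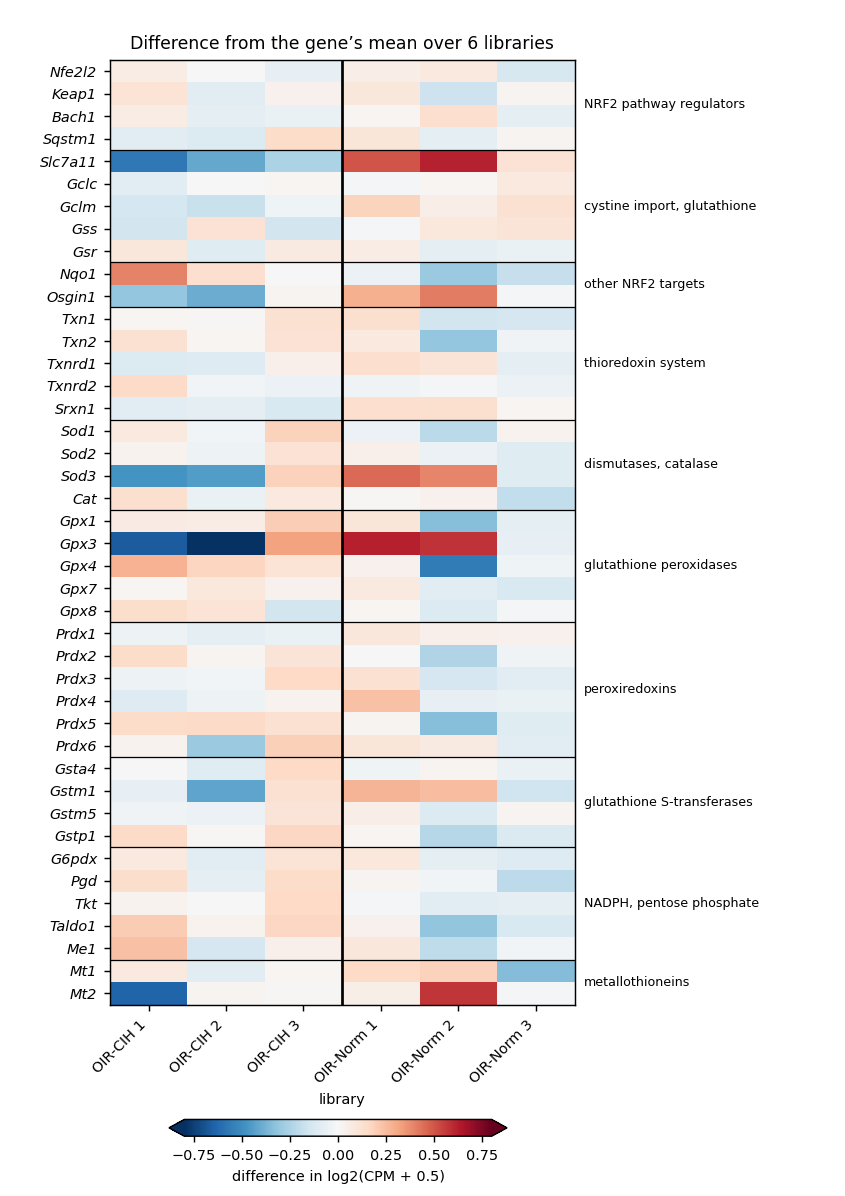
Difference of each gene from its own mean over the 6 libraries, in log2(CPM + 0.5), with red for higher and blue for lower; a vertical line separates OIR-CIH from OIR-Norm and the colour scale ends at 0.8. Slc7a11 is blue in all OIR-CIH and red in all OIR-Norm libraries, Gpx3 and Sod3 turn from blue to red at OIR-CIH 3, and Gpx4, Gpx1 and Prdx5 are at their lowest in OIR-Norm 2.

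Fold changes in these libraries varied with the exon length of the gene, and this touches the short members. Among all genes of at least 10 CPM the median log2 fold change was 0.15 up to 2000 bases of exon, 0.07 from 2000 to 4000, 0.01 from 4000 to 8000 and -0.06 above 8000 bases. The members in the same bins had medians of 0.07 (14 genes), 0.02 (16 genes), -0.00 (10 genes) and -0.39 (2 genes, Slc7a11 and Sod2). In the shortest bin 10 of 14 members (71.4%) were higher in OIR-CIH, against 84.9% of all such genes. The median difference of all such genes from their own mean over the libraries was -0.206 on the log2 scale in OIR-Norm 2. It was 0.0225 in OIR-Norm 1, -0.0273 in OIR-Norm 3, and 0.116, 0.0372 and 0.0706 in the OIR-CIH libraries. Above 8000 bases it was largest in size in OIR-CIH 1, at -0.0722, and was 0.0584 in OIR-Norm 2. How far single libraries set the trend with length was not tested. After a correction for exon length Gpx4 was at 0.24, and Gpx1 and Gstp1 were at 0.07 and 0.08. With a correction for exon length, which was added after the data had been seen, 16 members were higher and 26 lower, the median over the members was -0.06 beside -0.03 over all genes, so the split of 24 higher to 18 lower depended on this choice. Slc7a11, with 13922 bases of exon the longest member, remained called after the correction, at -0.77 with an edgeR adjusted p of 0.044.

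**Figure D5:**
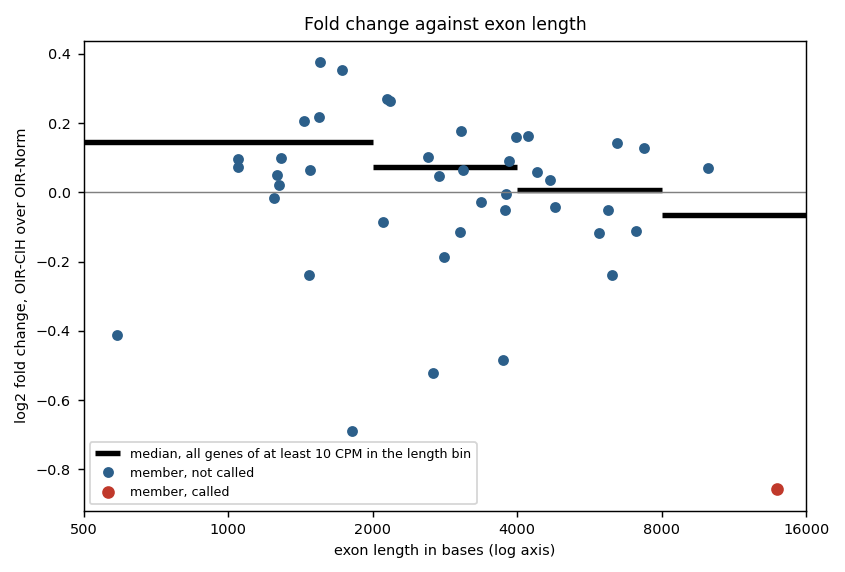
Log2 fold change of each member (points) against exon length on a log axis, with black bars for the median of all genes of at least 10 CPM in each length bin. The bars step down from 0.15 to -0.06 with length, and Slc7a11 lies far below the last.

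The wider pathway was read from a further list of 75 NRF2 and antioxidant genes, of which 72 were tested. Of these 40 were higher and 32 lower in OIR-CIH with a median of 0.04, and 1 was called. It was Hmox1, the heme oxygenase that both NRF2 and its competitor BACH1 control, with 8.20, 9.15 and 8.34 CPM in OIR-CIH and 39.2, 42.5 and 35.4 CPM in OIR-Norm, a log2 fold change of -2.19. Hmox1 was called under all 15 alternative fits, with log2 fold changes from -2.32 to -2.12. Of the NRF2 targets among the members, Slc7a11 was called lower in the fit with all libraries. Nqo1, Gclc, Gclm, Txnrd1, Srxn1, Osgin1 and G6pdx were not called, where 0.315% of all genes were. At an unadjusted p under 0.05, 14 genes of this list were higher and 4 lower (19.4% and 5.56%), where 6.30% and 7.10% of all genes were. The shares of all genes include many genes of low level. Of the 10544 genes of at least 10 CPM, 910 were higher and 757 lower at that p. Short genes also leaned higher in OIR-CIH, and the list was not matched for level or length. These limits hold for the gene lists below as well. After Hmox1 the lowest p-values were those of Selenos (log2 fold change 0.29), a selenoprotein of endoplasmic reticulum degradation, of the glutathione S-transferases Gstm2 (-0.69) and Gstm7 (0.38), and of the aldehyde oxidase Aox1 (-1.09), with edgeR adjusted p-values from 0.206 to 0.228. Slc3a2, the heavy chain that carries xCT to the membrane, was named after its values were seen. Slc3a2 had 179, 159 and 158 CPM in OIR-CIH and 162, 138 and 127 CPM in OIR-Norm, a log2 fold change of 0.22 (interval 0.01 to 0.42, adjusted p = 0.356 from edgeR), so its fold change was positive where that of Slc7a11 was negative.

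Slc7a11 is also a target of ATF4, the factor of the integrated stress response. Of 23 tested genes in a list of ATF4 targets 16 were higher and 7 lower in OIR-CIH, with a median of 0.12 and 0 called by edgeR; 3 of the listed genes, Slc3a2 among them, are also in the list above. At an unadjusted p under 0.05, 7 were higher and 1 lower (30.4% and 4.35%, against 6.30% and 7.10% of all genes), and groups lay apart in 10 of 23 (43.5%, against 18.4%). The lowest p-values belonged to Ddit4, an inhibitor of mTORC1 (log2 fold change 0.45, adjusted p = 0.0811 from edgeR), Nupr1 (-0.60), the serine synthesis enzyme Psat1 (0.31), the pseudokinase Trib3 (0.47) and the transcription factor Ddit3 (0.21). Ddit4, Psat1, Trib3 and Ddit3 were higher in every OIR-CIH library than in any OIR-Norm library, and Nupr1 was lower. None of them was past the threshold of edgeR, while DESeq2 called Nupr1.

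Genes of the superoxide-producing oxidases were of low level. Of 14 oxidase genes listed 12 were tested, 2 higher and 10 lower in OIR-CIH, with 0 called by edgeR or DESeq2 and 0 at an unadjusted p under 0.05. Their levels summed to 13.5 to 15.5 CPM in OIR-CIH and 14.3 to 19.5 CPM in OIR-Norm. The phagocyte subunit Ncf1 had the lowest p, with 2.43, 2.18 and 2.65 CPM against 2.86, 3.19 and 3.05 CPM, and a log2 fold change of -0.31 (interval -0.70 to 0.08). Markers of microglia and macrophages, cells that express the phagocyte oxidase, summed to 161.8 to 178.2 CPM in OIR-CIH and 200.4 to 226.4 CPM in OIR-Norm. Of these, 15 of 16 genes were lower, 1 called by edgeR and 3 by DESeq2. That list was chosen with earlier results known, and edgeR called 0.210% of all genes as lower. Glucocorticoid-responsive genes, listed because they share inducers with metallothioneins, were 7 higher and 5 lower of 12, with 0 called by edgeR or DESeq2 and 4 at an unadjusted p under 0.05 (33.3%, against 13.4% of all genes), namely Klf9, Dusp1, Errfi1 and Per1 with log2 fold changes of 0.31, 0.37, 0.20 and 0.20.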

How the data were processed

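Retinal poly(A) RNA of 3 OIR-CIH and 3 OIR-Norm libraries at PN18 was analysed. The authors aligned reads with STAR 2.7.9a, which also counted uniquely mapped reads per gene, and deposited 1 table of raw counts, all whole numbers. The methods name Ensembl 105 and the submitters' processing notes GRCm38, so no coordinates of counted genes are given; which strand column was kept is not given in the sources used here. Gene symbols and exon lengths came from GENCODE M21 by gene ID (32158 of 32285 matched a symbol). Total counts were 26289905 to 38010151, and libraries of a group differed by more than sampling noise.

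The 20021 genes whose counts summed to 10 or more were normalized by TMM (trimmed mean of M-values) and tested with edgeR 4.0.16 in R 4.3.3 (quasi-likelihood, no covariate), with limma 3.58.1 (limma-voom) and DESeq2 1.42.0 as alternatives. The standard error is the log2 fold change over the square root of F, and intervals use the moderated degrees of freedom. Single values were also compared by an exact two-sided permutation test. The members and lists were chosen with earlier results of these data known. All members may be named; from each pathway list genes called and at most 5 of lowest p, from marker lists genes of highest level or called. Hba-a1, Cdh5, Pmel, Slc3a2, Rpe65, Ttr, Lrat, Rgr, Rdh5, Kdr and Egfl7 were chosen after their values were seen. Markers without a match by symbol (Ahsp and Lim2) were not used, and single-gene coordinates are those of the RefSeq promoter table only.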

Additional observations from a re-analysis of the deposited data

How the results depend on the processing

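Across 16 alternatives, 0 members were called as higher in OIR-CIH, and Hmox1 was the 1 further pathway gene called in each. DESeq2 called 135 genes (101 lower, 34 higher) where edgeR called 63 (42 lower, 21 higher). When each library was left out in turn, 29 to 97 genes were called, with 29 without OIR-CIH 1 and 97 without OIR-Norm 3. Genes called lower ranged from 22 to 81 in these fits, genes called higher from 7 to 31, and members called lower from 0 to 2. Slc7a11 lost its call without OIR-CIH 1, OIR-CIH 2, OIR-Norm 1 or OIR-Norm 2, and Gpx3 was called only without OIR-CIH 3. Deviations from the group mean had correlations across genes of 0.144, 0.126 and -0.236 between same-numbered libraries. Between differently numbered libraries they ranged from -0.373 to 0.212. The same-numbered values differ in sign, so whether replicate numbers pair the libraries was not settled. With a replicate block 68 genes and 0 members were called, with Slc7a11 at an edgeR adjusted p of 0.0676. Mt1 was then at a log2 fold change of 0.0012. The exon-length correction, chosen after the data were seen, gave the members a median log2 fold change of -0.0587 (0.0496 without it). Of 630 member values under the alternatives, 594 kept direction and side of the threshold, 5 lost a call, 1 gained one and 30 changed sign, the last in 17 members whose log2 fold changes with all libraries were at most 0.10 in size. Those under the length correction were Gsr -0.0296, Txn1 -0.0772, Gpx7 -0.0538, Gpx8 -0.105, Prdx3 -0.0768, Gsta4 -0.112, Gstm5 -0.135 and G6pdx -0.00179, and Mt1 was 0.00233 with limma-voom. Without single libraries the log2 fold change ranged from -0.0672 to 0.0337 for Nfe2l2, -0.0354 to 0.087 for Keap1, -0.0992 to 0.00491 for Bach1, -0.117 to 0.0204 for Sqstm1, -0.00837 to 0.0963 for Txnrd2, -0.00742 to 0.141 for Prdx3, -0.141 to 0.0175 for Prdx4, -0.161 to 0.0801 for Prdx6, -0.0323 to 0.11 for Gsta4, -0.035 to 0.0491 for Gstm5, -0.00972 to 0.178 for Me1 and -0.173 to 0.0718 for Mt1. The cause of these shifts was not tested. The lowest counts of a member in a library were 45 for Osgin1 and 59 for Mt2, and Gpx4, with at least 9014 counts, also had an interval that reached beyond 0.5, so depth alone did not set the intervals. With 3 libraries per group an exact permutation test cannot give a p under 0.1.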
